A study of Drosophila melanogaster with 13 samples.

Results

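Testes of Drosophila melanogaster males lacking dany were compared with testes lacking aly or topi on 1-colour Agilent expression microarrays. The comparison used 7 of the 13 arrays of the series, chosen by their genotype labels: 3 dany, 2 aly and 2 topi arrays. Dany males carried the allele dany[ex11] over Df(2R)BSC802, a deficiency of the right arm of chromosome 2, with w[1118] on the X. Males of the aly group carried aly[2] over aly[5], with red and e on both of those chromosomes and w* on the X. Topi males carried topi[Z3-0707] over the allele topi[Z3-2139], with bw and a wild-type X. Control males, on 4 arrays, had Df(2R)BSC802 over a wild-type chromosome and w[1118] on the X. They served only to say on which side of the control level a target lay. All males were 0 to 2 days old and raised at 25 °C, and RNA of 80 testes was pooled for each array, so spread between males was not measured. Dany and control males share the deficiency and white mutation, while aly and topi males come from other stocks with red e or bw markers, so genotype and stock background cannot be told apart. The 2 sa arrays entered only the estimate of spread.

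In the fly testis, primary spermatocytes switch on a large programme of genes that are used after meiosis, during spermatid differentiation. The products of aly and topi belong to the testis meiotic arrest complex (tMAC), a testis counterpart of the dREAM/MuvB complexes, which activates much of this programme. Loss of aly or topi stops germ cells as mature primary spermatocytes, before the meiotic divisions. Whole testes hold germline and somatic cells of many stages, so fewer cells of a type and less RNA per cell cannot be told apart in any value below.

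A level here is a probe's log2 processed signal relative to its array's 75th percentile, so a level of 0 equals that percentile. The 19758 targets tested (genes, transcripts or cDNA clones), of 25782, had a probe well above background on all arrays of 1 group or more. A gene symbol could be given to 361 of them, and 175 of these have a name other than an annotation number. The counts over all targets therefore cover mostly unnamed transcripts. Each gene was read by 1 probe, which may lie outside the coding part, so no probe's level is set against another's. Probes above background made up 75.3% to 76.5% of each dany array, 64.5% to 66.5% of each aly array, 62.4% to 64.5% of each topi array and 60.9% to 69.1% of each control array. The 75th percentile itself (log2 signal) was 11.42 to 11.81 on dany arrays, 10.82 to 11.26 on aly and topi arrays and 10.25 to 11.13 on control arrays. The same dim signal therefore gives a lower level on a dany array. Probes of the mutated genes could not be identified, so the genotypes were not checked on the arrays. The markers of somatic cyst and hub cells that could be read were eya, ptc and puc. None of the 3 was called, but with slide as a term puc was called lower in dany (-1.38) and ptc higher (1.15). With median scaling (-1.55), quantile normalization (-1.34) and the deposited table (-1.28) eya was called lower, and median scaling called puc lower too (-1.82). The summed linear level of the 3 was 0.0765 to 0.0914 in dany, 0.0924 to 0.170 in aly and topi, and 0.0678 to 0.139 in control; the part of these cells in the results was not tested. The other cell type lists had no matched gene.

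Topi replicate 2 stood apart. Across targets it correlated with the 3 dany arrays at r = 0.75 to 0.762, whereas topi replicate 1 gave 0.606 to 0.612 and the aly arrays 0.635 to 0.675. The 2 topi arrays correlated with each other at 0.917, the 2 aly arrays at 0.972 and the dany arrays at 0.962 to 0.98. Results that rest on this array are given with and without it.

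Dany testes differed from aly and topi testes at most targets tested. A target was called when its limma p after Benjamini-Hochberg adjustment was under 0.05 and its change at least 2-fold. On this rule dany exceeded the mean of aly and topi at 5919 targets (30%) and fell below it at 7515 (38%). The rises were the larger: called rises had a median of 3.20 on the log2 scale, called falls a median of -1.78. At least 8-fold differences numbered 3195 rises and 610 falls. Of the called rises, 1264 were above background on every dany array and on no aly or topi array, so their size rests on dim signals. The reverse held for 83 called falls. Among the 13802 targets above background on all 7 dany, aly and topi arrays, 2581 were higher and 6318 lower. Against aly alone 28.2% of targets were higher and 35.7% lower, and against topi alone 29.8% and 37.6%; 4759 targets were higher than in each and 5853 lower than in each. Between aly and topi fewer targets differed, 7.24% higher and 7.62% lower in aly. Without topi replicate 2 the counts were 5842 higher and 7584 lower. Among the 175 named genes 34 were higher and 77 lower, and for 102 of these 111 genes the 3 dany arrays did not overlap the 4 aly and topi arrays. In all targets, 28.7% lay higher and 40.9% lower in dany without overlap.

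The balance of rises and falls depended on how arrays were scaled. The median difference over all targets was -0.51 at the 75th percentile scaling, -1.44 when arrays were scaled by their median and 0.12 when scaled by 7 spike-in probes. Rises made up 44.1% of calls at the 75th percentile, 28.8% with median scaling and 77.3% with spike-in scaling, under which 6012 targets were higher and 1768 lower. Median and spike-in scaling move every difference by the same amount, too small to turn a called rise into a called fall. That no target was called in opposite directions under these scalings was therefore fixed in advance. The spike-in mean relative to the 75th percentile ranged from -0.37 to 0.97 between dany arrays and from -0.23 to 1.71 between control arrays. Spike-in scaling therefore also changes the spread within groups, and a call can be lost on p alone.

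The named genes with the largest rises, ND-B14.5AL and Vha100-3, had high levels in control and dany and low levels in most aly and topi arrays. ND-B14.5AL, a testis-type paralogue of a mitochondrial complex I subunit, had levels of 2.86, 3.23 and 3.17 in dany, -6.10 and -6.77 in aly, -5.34 and 0.24 in topi, and 4.32, 4.29, 4.68 and 4.68 in control. Every dany array lay above every aly and topi array and below the control arrays, and topi replicate 2 lay between the other mutant arrays and dany. Neither aly array was well above background. The difference was 7.58 (SE 0.956, limma adjusted p = 3.9e-05), 8.97 without topi replicate 2 and 6.18 without topi replicate 1.

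Vha100-3, an isoform of a membrane subunit of the vacuolar proton pump, showed the same order of arrays. Its levels were 2.90, 3.49 and 3.04 in dany, -3.83 and -3.52 in aly, -6.00 and 0.74 in topi, and 4.42 ± 0.187 in control (SD, n = 4). The difference was 6.29 (SE 1.15, limma adjusted p = 0.000508), 7.98 without topi replicate 2 and 4.61 without topi replicate 1. For both genes dany was not called against control, while aly and topi were called lower than control. The test pools the spread over all groups, including the topi arrays, which lay far apart here. Not called therefore does not mean a dany level equal to control. The Vha100-3 difference of dany from control was -1.28.

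The long non-coding RNA lncRNA:Yu and the histone chaperone gene Nasp were lower than control in dany and in the mean of aly and topi, and higher in dany than in that mean. lncRNA:Yu had levels of -2.50, -2.88 and -2.93 in dany, -8.16 and -8.31 in aly, -8.12 and -3.72 in topi, and 1.53 ± 0.215 in control (SD, n = 4). Dany stood 4.31 above aly and topi (SE 0.762, limma adjusted p = 0.000416), 5.41 without topi replicate 2 and 3.21 without topi replicate 1, and fell by 4.30 relative to control. With normexp background correction the difference was 1.64. Nasp had levels of -4.25, -4.45 and -4.23 in dany, -8.11 and -8.30 in aly, -8.04 and -5.14 in topi, and -0.24 ± 0.071 in control (SD, n = 4). Its difference from aly and topi was 3.09 (SE 0.509, limma adjusted p = 0.000258), 3.81 without topi replicate 2 and 2.36 without topi replicate 1. In both genes topi replicate 2 was nearest to dany of the 4 aly and topi arrays and was the 1 of them well above background. With normexp background correction the Nasp difference shrank to 0.54 and was not called.

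RpS29, which encodes a ribosomal protein, was the ribosomal member that went up. Its levels were -1.08, -0.70 and -0.77 in dany, -2.80 and -2.29 in aly, -3.06 and -2.77 in topi, and -0.01 ± 0.258 in control (SD, n = 4). The dany arrays lay between the other mutants and the control. The difference of 1.88 (SE 0.209, limma adjusted p = 1.54e-05) shrank to 0.95 with median scaling, below 2-fold.

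**Figure D1:**
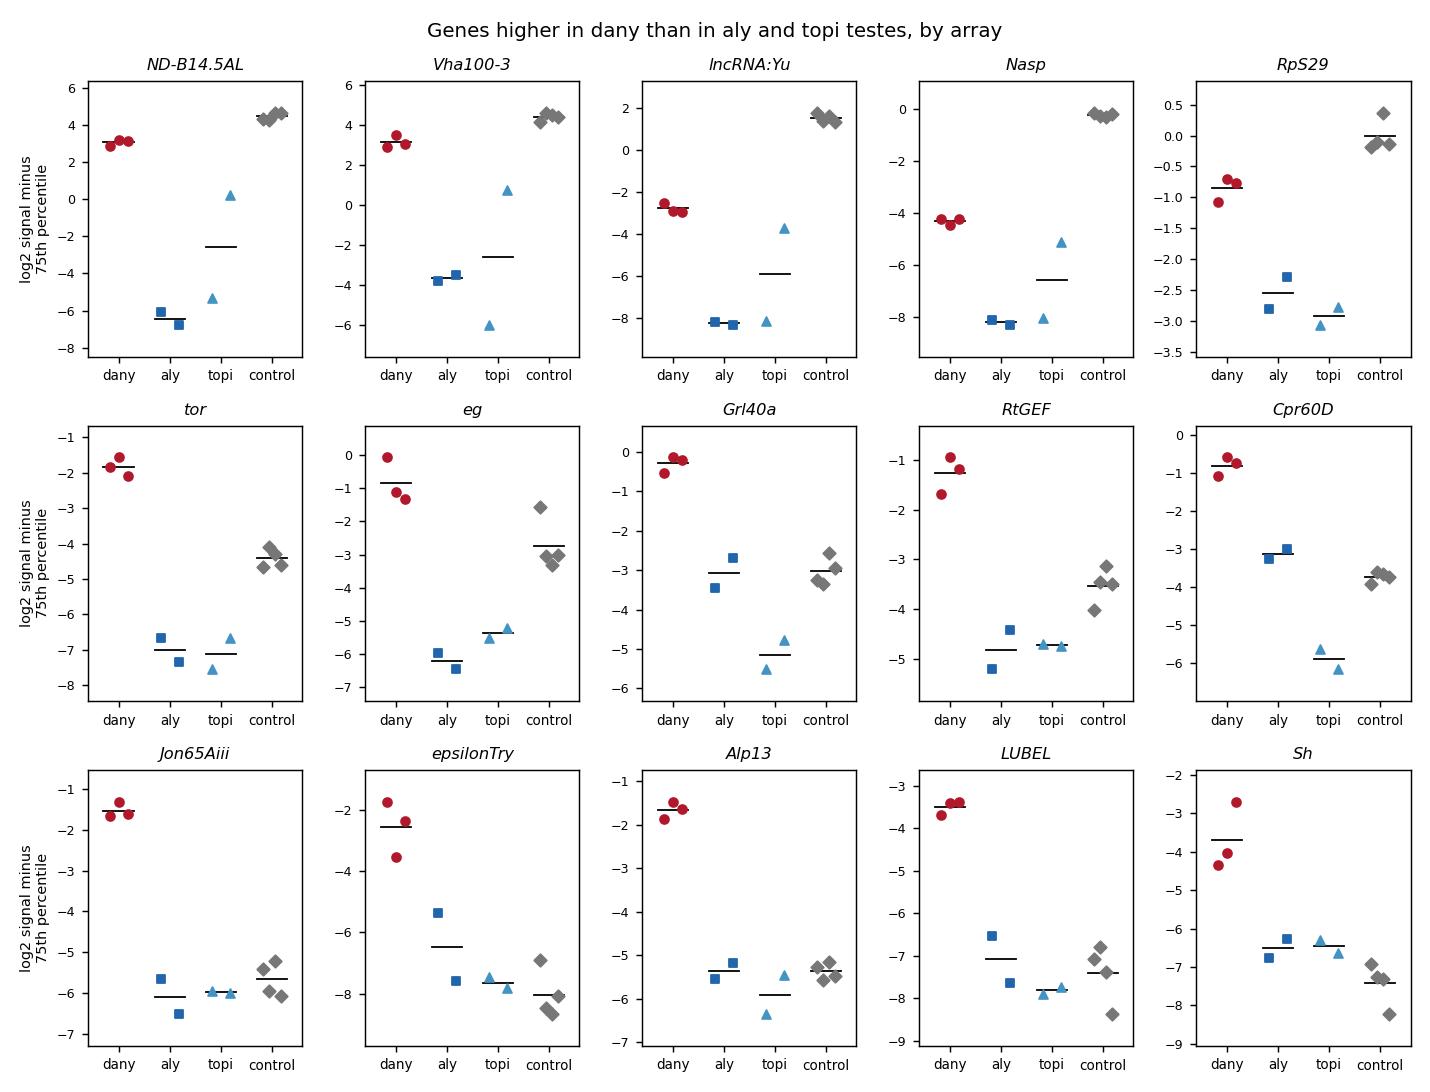
Levels of 15 genes called higher in dany, by array (log2 signal relative to the array's 75th percentile; points are arrays, lines are group means, and each panel has its own axis). In the first 4 panels topi replicate 2 lies above the other aly and topi arrays, as for ND-B14.5AL at 0.24 against -5.34 in topi replicate 1.

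A further set of genes lay on opposite sides of the control level, above it in dany and below it in aly and topi. Against control 28% of all targets were higher and 15.6% lower in dany, and 42.8% higher and 21.2% lower in aly and topi. There were 634 targets on opposite sides among those higher in dany, and the named ones were tor, eg, Grl40a and RtGEF. The receptor tyrosine kinase gene tor, known for patterning the ends of the embryo, had levels of -1.85, -1.56 and -2.10 in dany, -6.68 and -7.34 in aly, -7.55 and -6.66 in topi, and -4.41 ± 0.269 in control (SD, n = 4). The groups did not overlap, and no aly or topi array was well above background, whereas every control array was. tor was at least 26.0-fold higher in dany (limma adjusted p = 1.17e-07). Such a fold sets the dany mean against the dim arrays, each raised where needed to the lowest level above background on it, and it is no guaranteed minimum, since it depends on the background correction: with normexp the log2 difference of tor was 2.65.

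The nuclear receptor gene eg, which acts in the specification of serotonergic neurons, had levels of -0.06, -1.11 and -1.33 in dany, -5.96 and -6.47 in aly, -5.51 and -5.22 in topi, and -2.74 ± 0.794 in control (SD, n = 4). Dany exceeded aly and topi by 4.96 (SE 0.454, limma adjusted p = 3.93e-06) and control by 1.90. Dany replicate 1 and control replicate 1, which shared a slide, were the highest arrays of their groups.

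Grl40a, a member of the gustatory receptor-like family, had levels of -0.52, -0.13 and -0.20 in dany, -3.46 and -2.69 in aly, -5.52 and -4.78 in topi, and -3.03 ± 0.347 in control (SD, n = 4). The aly arrays overlapped the control range and the topi arrays lay below it. The difference between dany and the mean of both was 3.83 (SE 0.279, limma adjusted p = 7.8e-07). RtGEF, a guanine nucleotide exchange factor, had levels of -1.69, -0.95 and -1.18 in dany, -5.21 and -4.42 in aly, -4.70 and -4.73 in topi, and -3.53 ± 0.363 in control (SD, n = 4). Dany was the highest group and aly and topi the lowest, with a difference of 3.50 (SE 0.285, limma adjusted p = 1.73e-06).

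Other targets were called above control in dany, with aly and topi not called against control. There were 1600 of them (27.0% of the rises), and 12 of them are named. Of the digestive enzyme genes, 2 of 3 tested were higher in dany, beside 30% of all targets. Jon65Aiii, a serine protease of the gut, had levels of -1.66, -1.32 and -1.61 in dany, -5.66 and -6.52 in aly, -5.95 and -6.01 in topi, and -5.67 ± 0.425 in control (SD, n = 4). Only the dany arrays stood out, by 4.50 (SE 0.280, limma adjusted p = 2.55e-07).

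The trypsin gene epsilonTry was more variable, with levels of -1.74, -3.55 and -2.36 in dany, -5.36 and -7.60 in aly, -7.47 and -7.83 in topi, and -8.04 ± 0.787 in control (SD, n = 4). The groups did not overlap, but the gene was above background on only 1 aly array and on no topi or control array, so the size of the difference rests on dim signals. It was 4.51 with the scanner's background subtraction (SE 0.735, limma adjusted p = 0.000236) and 1.84 with normexp. The lysozyme gene LysE, the third of the list, split the 2 other mutants: it was -1.74, -1.57 and -1.90 in dany, -5.63 and -4.83 in aly, 0.25 and -0.37 in topi, and -6.39 ± 0.514 in control (SD, n = 4). It was called higher than aly (3.50) and lower than topi (-1.67), and its difference from their mean was 0.91.

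Alp13, of the alkaline phosphatase family, had levels of -1.88, -1.48 and -1.64 in dany, -5.56 and -5.18 in aly, -6.35 and -5.46 in topi, and -5.37 ± 0.187 in control (SD, n = 4). It was 3.98 higher in dany (SE 0.234, limma adjusted p = 1.78e-07). The cuticle protein gene Cpr60D had levels of -1.08, -0.58 and -0.73 in dany, -3.24 and -2.99 in aly, -5.62 and -6.16 in topi, and -3.73 ± 0.136 in control (SD, n = 4). Its difference was 3.70 (SE 0.233, limma adjusted p = 2.73e-07), and the topi arrays lay below both aly and control. It was the only 1 of 3 tested cuticle and eggshell genes called, beside 30% higher and 38% lower of all targets. Vm34Ca (-1.25) and Cpr49Ag (-0.17) were not called. Vm34Ca was called lower with normexp (-1.11), with median scaling (-2.19) and with only the dany, aly and topi arrays in the fit.

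Many transcripts were detected in dany and not in aly or topi. Of the targets tested 1439 stood well above background on every dany array and on no aly or topi array, 1264 of them called higher. The reverse held for 84 targets, 83 of them called lower. Of all targets tested, 18279 were above background on every dany array and 14327 on every aly and topi array. The dany arrays were also brighter, and the part of brightness in these counts was not tested. Calls of targets chosen on the same arrays are no separate support. Of the 1439, 429 were above background on every control array and 683 on none. The named ones were tor, LUBEL, Sh, Zip42C.2, NimC3, croc, otp, lncRNA:cherub, Cad86C and Gfrl. The last 2 were not called, with differences of 0.46 and -0.32. LUBEL, a ligase that builds linear ubiquitin chains, had levels of -3.68, -3.40 and -3.38 in dany, -6.52 and -7.63 in aly, -7.89 and -7.72 in topi, and -7.41 ± 0.683 in control (SD, n = 4). With the scanner's background subtraction it was at least 8.17-fold higher in dany (limma adjusted p = 4.84e-06), with no overlap. Its log2 difference was 1.08 under normexp and 2.08 in the deposited table, both called.

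The potassium channel gene Sh had levels of -4.34, -4.03 and -2.70 in dany, -6.77 and -6.26 in aly, -6.29 and -6.64 in topi, and -7.43 ± 0.559 in control (SD, n = 4). It was at least 6.43-fold higher in dany (limma adjusted p = 0.000378), with dany replicate 3 the highest array. The zinc transporter family gene Zip42C.2 was at least 3.68-fold higher (limma adjusted p = 0.000406), and no control array was above background for it or for Sh. lncRNA:cherub, a non-coding RNA known from neural stem cells, had levels of -3.21, -3.89 and -3.76 in dany, -6.83 and -5.76 in aly, -6.02 and -5.30 in topi, and -3.84 ± 0.324 in control (SD, n = 4). Dany overlapped the control and lay at least 4.94-fold above aly and topi (limma adjusted p = 5.26e-05). With normexp background correction Sh (0.74), Zip42C.2 (0.26) and lncRNA:cherub (0.62) were not called.

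Transcripts lower in dany were mostly ones that aly and topi testes held above the control level. Among the 7515 lower targets, 4479 (59.6%) were called higher than control in aly and topi and not called in dany, 41 of them named. Another 1045 (13.9%) were lower than control in dany, with aly and topi not called. In 224 (2.98%) the mutants lay on opposite sides of control, and the named ones were eIF3l, Slik, Cyp1 and RpS7. With spike-in scaling the 4479 targets became 1380 and the 224 became 22, so their number depends on the scaling. Spike-in scaling changes both the differences and the spread within groups, and the part of each was not tested. The calls against control share the control arrays, and they reuse the dany, aly and topi arrays by which the rises and falls were chosen. For rises and falls alike the classes are therefore a description. Choosing falls favours aly and topi above control, so the shares are no separate support.

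**Figure D2:**
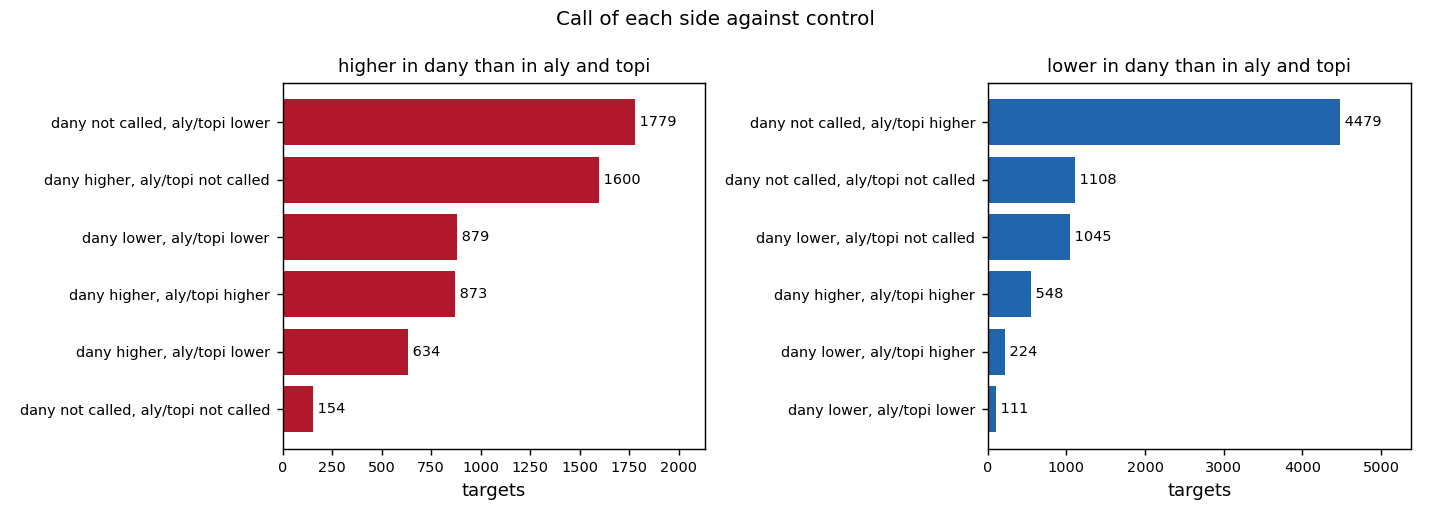
Number of targets called higher (left) or lower (right) in dany than in aly and topi, split by the call of dany and of the aly and topi mean against control; bars start at 0. The longest bars are 1779 targets with aly and topi below control and dany not called, and 4479 targets with aly and topi above control and dany not called.

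eIF3l, a subunit of translation initiation factor 3, had levels of -0.56, -0.68 and -0.91 in dany, 2.88 and 3.02 in aly, 3.00 and 2.74 in topi, and 0.46 ± 0.133 in control (SD, n = 4). No other group overlapped dany, and dany lay below control and far below aly and topi (difference -3.63, SE 0.164, limma adjusted p = 3.25e-08). Slik, a Ste20-like kinase that phosphorylates moesin, had levels of 0.01, -0.86 and -0.49 in dany, 2.26 and 2.52 in aly, 2.15 and 1.78 in topi, and 1.01 ± 0.301 in control (SD, n = 4). Dany was the lowest group and aly and topi the highest, with a difference of -2.63 (SE 0.252, limma adjusted p = 5.49e-06).

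The cyclophilin gene Cyp1 had levels of -6.81, -8.04 and -8.23 in dany, -5.00 and -5.40 in aly, -3.63 and -3.76 in topi, and -6.15 ± 0.355 in control (SD, n = 4). It was above background on 1 of 3 dany arrays, and the difference was -3.25 (SE 0.334, limma adjusted p = 9.14e-06). Of the 4 chaperone genes, Cyp1 and bic were lower, Nasp was higher and Hsc70-1 was not called (0.92). Of all targets 38% were lower and 30% higher. Without topi replicate 2 Hsc70-1 reached 1.29 and was called (limma adjusted p = 0.000906). bic, the beta subunit of the nascent polypeptide-associated complex, had levels of -8.98, -8.75 and -9.50 in dany, -4.56 and -4.46 in aly, -5.58 and -4.50 in topi, and -8.43 ± 0.616 in control (SD, n = 4). It was above background on all aly and topi arrays and on no dany or control array, and, with the scanner's background subtraction, at least 8.30-fold lower in dany (limma adjusted p = 2.26e-06). Its log2 difference was -1.78 under normexp and -2.28 in the deposited table.

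wuc, a lin-52 homologue whose product binds Aly, was the readable gene among the tMAC subunits and partners. Its levels were -0.13, 0.15 and 0.57 in dany, 2.56 and 3.00 in aly, 3.94 and 3.26 in topi, and 0.55 ± 0.247 in control (SD, n = 4). Dany overlapped the control and aly and topi lay above both. The difference was -2.99 (SE 0.253, limma adjusted p = 2.26e-06).

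Art7, an arginine methyltransferase, had the largest named fall: its levels were -4.85, -6.43 and -5.60 in dany, -1.13 and -2.16 in aly, 1.23 and 0.14 in topi, and -7.83 ± 0.604 in control (SD, n = 4). Dany lay between the control, where no array was above background, and the other mutants. The difference was -5.15 (SE 0.527, limma adjusted p = 8.84e-06). The nicotinic receptor subunit gene nAChRalpha6 followed the same order, with levels of -5.82, -5.47 and -5.79 in dany, -2.71 and -2.55 in aly, -2.67 and -2.70 in topi, and -7.99 ± 0.554 in control (SD, n = 4). Its difference was -3.04 (SE 0.274, limma adjusted p = 3.54e-06).

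Polr2J, an RNA polymerase II subunit, had levels of -0.51, -0.95 and -0.51 in dany, 1.62 and 1.55 in aly, 2.07 and 1.75 in topi, and -0.38 ± 0.122 in control (SD, n = 4). Dany lay next to control, and the difference from aly and topi was -2.40 (SE 0.185, limma adjusted p = 1.14e-06). Wdr24, a component of the GATOR2 complex of nutrient sensing, differed by -2.28 (SE 0.342, limma adjusted p = 0.000133), with means of -4.79 in dany, -3.09 in aly, -1.93 in topi and -5.58 in control. The transcription factor gene btd, at -6.92, -7.10 and -8.32 in dany, -2.64 and -4.03 in aly and -5.86 and -5.08 in topi, was at least 7.83-fold lower on the same basis (limma adjusted p = 0.00231), with log2 differences of -1.84 under normexp and -2.04 in the deposited table. It was not called against topi alone (-1.98). The paired-domain gene Poxm was above background on both aly arrays and on no dany or topi array. Its difference therefore rests on dim signals. Poxm was lower in dany than in the mean of aly and topi (limma adjusted p = 0.00957). Neither Wdr24 nor Poxm was called with spike-in scaling.

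**Figure D3:**
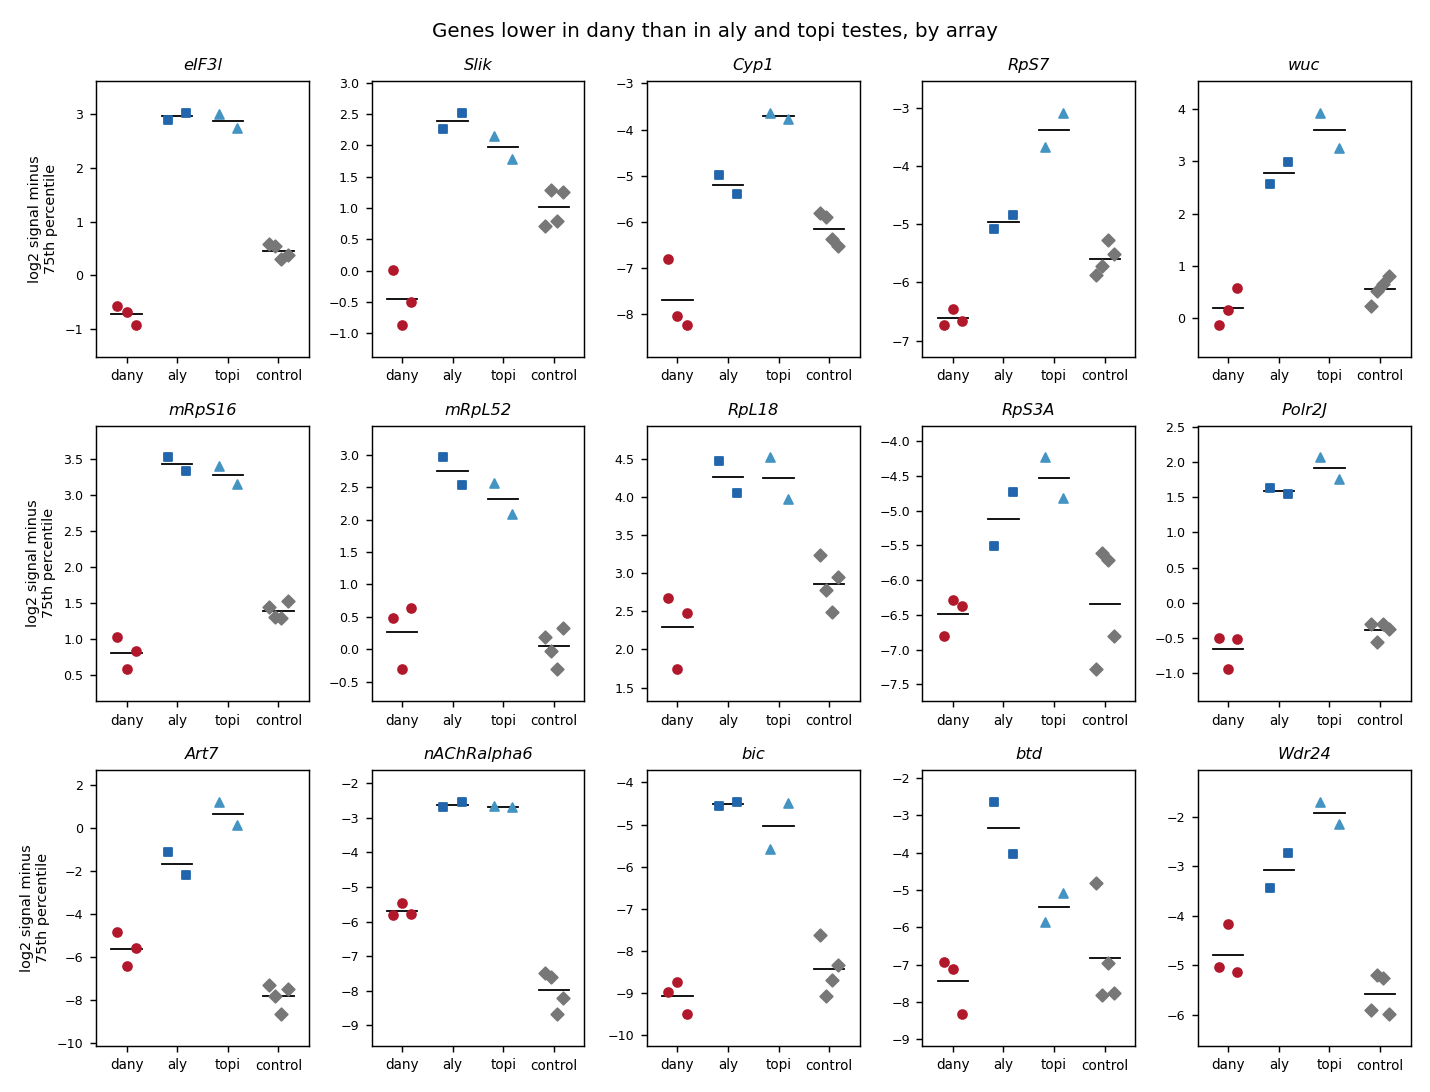
Levels of 15 genes called lower in dany, by array (log2 signal relative to the array's 75th percentile; points are arrays, lines are group means, and each panel has its own axis). In eIF3l, Slik, Cyp1 and RpS7 the dany mean lies below and the aly and topi means above the control mean.

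Of 10 tested genes on a list of mitochondrial genes, 6 were called lower, 1 higher (ND-B14.5AL) and 3 not called. Of all targets 38% were lower and 30% higher. The list was made by symbol patterns and is not full: it missed other mitochondrial genes, some of them called lower. The median of the 10 was -1.40 against -0.51 over all targets. mRpS16, a mitochondrial ribosomal protein gene, had levels of 1.03, 0.58 and 0.83 in dany, 3.53 and 3.33 in aly, 3.41 and 3.16 in topi, and 1.39 ± 0.117 in control (SD, n = 4). Its difference was -2.54 (SE 0.175, limma adjusted p = 5.14e-07). mRpL52, of the same ribosome, followed at -2.27, mRpL14 at -1.51 and mRpL9 at -1.29, and the complex I subunit genes ND-B14.7 and ND-B17.2 at -1.72 and -1.04. Not called were mRpS24 (-1.62), Tim17a2 (-0.78) and ND-39 (-0.66). ND-B14.7 was not called with quantile normalization (-0.84), in the deposited table (-0.83) or with spike-in scaling (-1.09). In the same settings ND-B17.2 (-0.44, -0.44 and -0.42) and mRpL9 (-0.53, -0.53 and -0.67) were not called. mRpL14 was not called with spike-in scaling (-0.88). Tim17a2 was called lower with quantile normalization (-1.28), in the deposited table (-1.25) and with median scaling (-1.72). So was mRpS24 (-2.23, -1.93 and -2.56), and also with normexp (-1.53). ND-39 was called lower with median scaling (-1.60). With spike-in scaling the list held 2 falls and a median of -0.77.

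Of 4 cytosolic ribosomal protein genes reported here, 3 were lower and RpS29 was higher, with a median of -1.81, beside the 38% lower and 30% higher of all targets. RpL18 had levels of 2.67, 1.74 and 2.48 in dany, 4.47 and 4.05 in aly, 4.52 and 3.98 in topi, and 2.86 ± 0.313 in control (SD, n = 4). Dany overlapped the control and lay below aly and topi (difference -1.96, SE 0.285, limma adjusted p = 0.000109). RpS7 had levels of -6.73, -6.47 and -6.67 in dany, -5.08 and -4.85 in aly, -3.68 and -3.08 in topi, and -5.59 ± 0.260 in control (SD, n = 4). Its difference was -2.45 (SE 0.214, limma adjusted p = 2.83e-06), with dany below and the others above control. RpS3A (-1.66) was also lower. With spike-in scaling only 1 of the 4 was called lower and the list's median was -1.18.

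**Figure D4:**
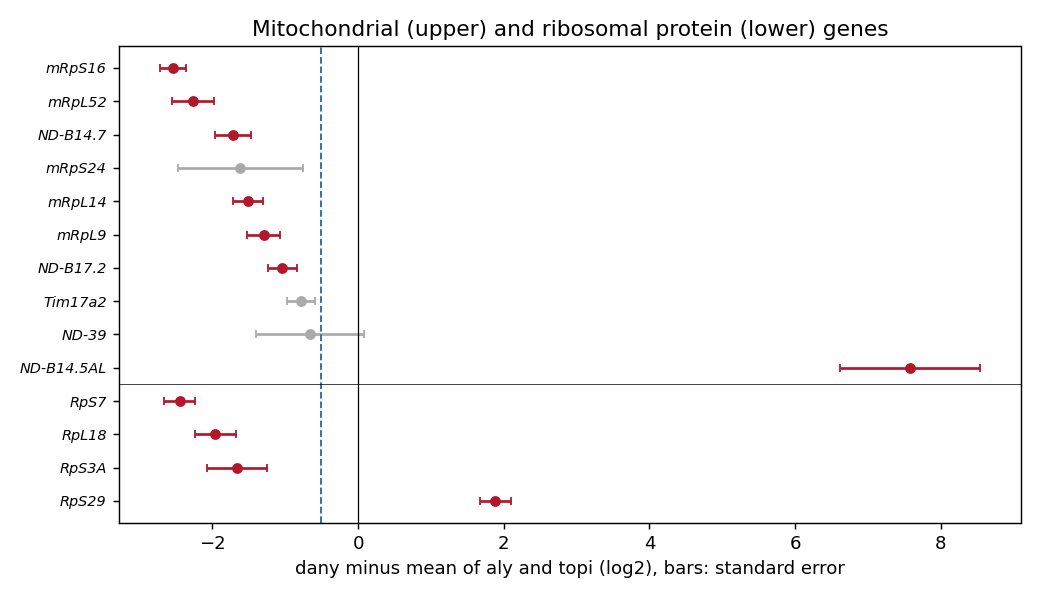
Difference of dany from the mean of aly and topi for 10 mitochondrial and 4 ribosomal protein genes (log2, bars are the standard error; red points are called, grey are not). The dashed line marks the median of all targets, -0.51; ND-B14.5AL at 7.58 and RpS29 at 1.88 lie on the other side of 0 from the other genes.

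Genes of the post-meiotic cup and comet class, named for transcripts at the tail end of spermatids, had no member called higher in dany, and 1 of 3 called lower. Of all targets 30% were higher and 38% lower, so 3 genes cannot set the class apart. soti, an inhibitor of a ubiquitin ligase in spermatid individualization, had levels of -6.35, -5.88 and -6.39 in dany, -4.57 and -4.22 in aly, -5.31 and -5.54 in topi, and -4.94 ± 0.213 in control (SD, n = 4). Dany was the lowest group, with a difference of -1.30 (SE 0.223, limma adjusted p = 0.000339), though not called against topi alone (-0.78) or with spike-in scaling (-0.67). f-cup had levels of 2.00, 2.49 and 2.21 in dany, 2.90 and 3.35 in aly, 3.38 and 3.09 in topi, and 4.92 ± 0.129 in control (SD, n = 4). Dany was the lowest group, but its difference of -0.94 was under 2-fold; without topi replicate 2 it was -1.02 and called. hale differed by -1.04 (SE 1.35, not called), and its arrays on slide 1 were higher than the rest of their groups, at -3.39 in dany replicate 1, -1.83 in aly replicate 1 and -0.91 in control replicate 1. With slide as a term in the model it was called at -1.60.

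The other lists held few readable genes. Vha13 of the proton pump was lower (-1.38), which quantile normalization (-0.58), the deposited table (-0.55) and spike-in scaling (-0.76) took below the call. The calcium channel Trpml (0.48), the ubiquitin protease puf (0.79), the resolvase Gen (0.73), and the transcription factors grh (-0.98) and slp1 (0.65) were not called. The grh probe was not above background on any dany, aly or topi array, so its differences rest on dim signals. It was called lower with slide as a term (-1.12), with the replicate block (-1.35), against topi alone (-1.15), with median scaling (-1.91), and without dany replicate 3 (-1.36) or topi replicate 2 (-1.01). The chemosensory receptor gene Ir7b was lower (-2.13), but not called with spike-in scaling (-1.50).

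The array also carries cDNA clones, named by the library they came from. Of the clones from adult testis, 76 of 114 were higher in dany and 15 lower, with a median difference of 2.82. Over all targets 30% were higher and 38% lower, with a median of -0.51. The ovary clones had the lowest median, -1.39, with 4 of 49 higher and 33 lower. Embryo clones had 24 of 141 higher and 68 lower (median -1.10), adult head clones 37 of 167 and 72 (-0.78), and Schneider cell clones 12 of 55 and 26 (-0.97). Larva and pupa clones had 8 of 24 higher and 7 lower (0.51). Of the 114 testis clones, 39 were lower than control in dany and 86 in aly and topi, while 10 and 12 were higher. Their median difference from control was -1.10 in dany and -3.83 in aly and topi. Of all targets, 15.6% were lower and 28% higher than control in dany, and 21.2% lower and 42.8% higher in aly and topi. The medians over all targets were 0.06 and 0.81.

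The testis median was 3.28 without topi replicate 2 and 2.12 without topi replicate 1. Within slides it was 2.61 between dany 1 and aly 1 and 1.58 between dany 2 and topi 2, and 2.28 with slide as a term. It was 1.40 with normexp background correction, and 0.79 over clones above background on all 7 mutant arrays, of which 21 were higher. Of all 13802 targets above background on those arrays 2581 were higher, with a median of -0.91. With spike-in scaling the testis median was 3.45, and the ovary clones then had 5 falls.

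**Figure D5:**
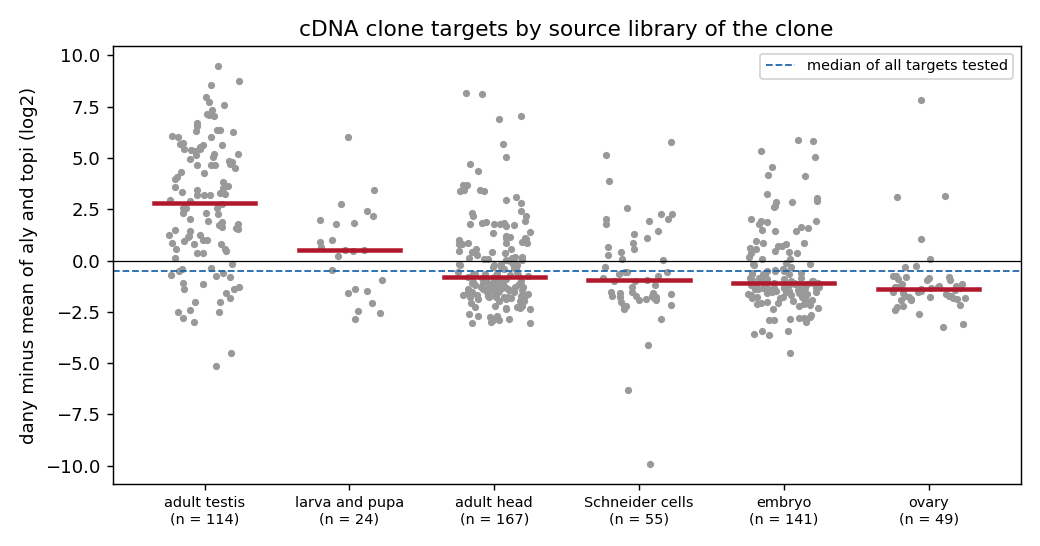
Difference of dany from the mean of aly and topi for cDNA clone targets, grouped by the library of the clone (log2; grey points are targets, with random horizontal spread; red lines are medians). The adult testis median of 2.82 lies above the dashed line, the -0.51 median of all targets, and the ovary median of -1.39 below it.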

How the data were processed

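RNA from 13 testis samples was hybridized to 1-colour arrays on 4 slides. Per the file headers, the authors used Agilent Feature Extraction, version 10.7.3.1, under protocol GE1_107_Sep09. Its deposited output gives each spot's intensity on a linear scale, and other flag columns for background and quality. The deposited series table holds log2 values with medians of 7.89 to 7.90. They rank probes like the processed signal (Spearman coefficient 0.985 to 0.998), while their background correction and normalization are not given in the sources used here, so the table served as an alternative.

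Spots of a probe were averaged without control and outlier spots, log2 processed signal was scaled by the 75th percentile of each array and the brightest probe kept was used for each target. limma 3.58.1 (R 4.3.3) was fitted to all 13 arrays, two-sided, with the contrast of dany minus the mean of the aly and topi means. The script was tested on simulated data. With this number of arrays, which limits the precision, the median SE was 0.306. Symbols came from a RefSeq table, which matched 549 of 32162 probes, and the array design uses an older build, so no position or sequence is given. The files have no mean signal column, so normexp (offset 50) used the median signal. Replicates are called biological in the labels, and control replicate 4 is numbered 3 in another label. Alternatives covered background, scaling, filter, probe choice, slide, replicate number and each array left out.

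Same-numbered mutant arrays deviated together at r = -0.02 to 0.63. Dany and aly gave 0.63 for replicates 1, on the same slide, and 0.61 for replicates 2, on different slides. Pairs with topi gave -0.02 to 0.06. In a group of 2 arrays the deviations mirror each other, so these values cannot decide whether numbers pair samples. The main fit used no pairing. Arrays of 1 slide, over all groups, had a median r of 0.55.

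Named genes were the largest differences above background, the largest at-least folds, genes on opposite sides of control and up to 4 members of each list, leaving out bare annotation numbers. A gene that the rule names is not reported here. Members, lists and tests were chosen with earlier results of these data known.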

Additional observations from a re-analysis of the deposited data

Results flagged for a closer look

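For 7 named genes the 2 other mutants differed from each other, so a single difference from their mean hides 2 values. In aly minus topi, Grl40a differed by 2.08 (limma adjusted p = 0.00313), Cpr60D by 2.77 (limma adjusted p = 0.000154) and soti by 1.03 (limma adjusted p = 0.0359), so aly was the higher. Topi was the higher for LysE, at -5.17 (limma adjusted p = 1.43e-05), Art7 at -2.33 (limma adjusted p = 0.0437), RpS7 at -1.59 (limma adjusted p = 0.00316) and Cyp1 at -1.50 (limma adjusted p = 0.0415). Over all targets, 1430 (7.24%) were higher and 1506 (7.62%) lower in aly than in topi.

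A control array lay far from the others for 2 genes: RpS29 in control replicate 3, at 0.37 with the nearest array at -0.10, and slp1 in control replicate 1, at -4.57 with the nearest at -3.86. Chance alone sets apart an array in about 1 in 20 groups.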

How the results depend on the processing

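Every called gene that the naming rule chose kept its direction under the alternatives that tested it. Median and spike-in scaling move all differences alike by less than 2-fold, so they could not reverse a called gene. The reversals concern differences that were not called. These were, with normexp background correction, Trpml (-0.56), slp1 (-0.018) and ptc (-0.46). With median scaling they were Gen (-0.20), Hsc70-1 (-0.016), Trpml (-0.46), puf (-0.14), LysE (-0.025) and slp1 (-0.29). Further reversals were slp1 with quantile normalization (-0.041) and in the deposited table (-0.20), and Cpr49Ag (0.46) and eya (0.016) with spike-in scaling. Against topi alone they were Gen (-0.35), LysE (-1.67) and Cpr49Ag (0.95). Leaving out 1 array at a time gave -0.89 to 0.42 for Cpr49Ag, positive without dany replicate 2 or aly replicate 1, and -0.087 to 1.55 for Gen, negative without aly replicate 2. It gave 935 (without aly replicate 1) to 2162 (without topi replicate 1) targets lower in aly than in topi, and 1133 (without topi replicate 1) to 1933 (without dany replicate 2) with dany not called and aly and topi below control, 1152 without topi replicate 2. The median over all targets was then -0.58 to -0.45 and that of testis clones 2.12 to 3.28.

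The following counts moved by over 1.5 times, and medians by more than the spread between dany arrays. The cause was not tested. Normexp gave 272 targets with dany above and aly and topi below control, 1055 with dany not called and aly and topi below control, a median over all targets of -0.73 and a testis clone median of 1.40. Median scaling gave 371 and 992 for these 2 classes, 2119 with dany below and aly and topi above control, 11067 lower than aly, and medians of -1.44 and 1.89. Quantile normalization gave 596 in the opposite-side class of falls and a median of -0.55, and the deposited table gave 360 in that class and a testis median of 1.87.

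Spike-in scaling gave 1768 falls in all, 808 against aly and 1701 against topi, and 452 targets higher and 714 lower in aly than in topi. It also gave 22 falls on opposite sides of control, 1380 with dany not called, medians of 0.12 and 3.45, and 5 ovary, 15 embryo and 14 head clones lower.

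Without a filter on dim probes 11525 of 25782 targets were lower, with a median of -0.91, and 5961 were higher, against 5919 with the filter. The same dim signal gives a lower level on a dany array, and the part of this in the added falls was not tested. Testing only the 13802 targets above background on all 7 mutant arrays removes those absent from a group. This filter gave 2581 rises in all, 2477 against aly, 2617 against topi and 869 in aly over topi. It also gave 207 and 729 for the 2 classes of rises, medians of -0.91 and 0.79 and 21 testis clones higher. The mean of the kept probes gave a testis median of 2.57, slide as a term medians of -0.46 and 2.28, and topi alone a testis median of 3.09. The replicate block gave 5924 rises and 7608 falls, and of the named genes it changed the call of grh (-1.35).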

Other observations

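Antisense RNAs, which overlap other genes on the opposite strand, had 17 of 27 members higher in dany and 5 lower, with a median of 2.66, where 30% of all targets were higher and 38% lower (median -0.51). Long non-coding RNAs, with 22 of 61 higher (36.1%) and 27 lower (44.3%, median -0.69), lay near the shares over all targets. The X-linked non-coding RNAs of dosage compensation, lncRNA:roX1 and lncRNA:roX2, were both lower in dany, with differences of -1.97 (SE 0.236, limma adjusted p = 2.7e-05) and -2.07 (SE 0.340, limma adjusted p = 0.000251). They were chosen after their values were seen. Mean levels of lncRNA:roX1 were -1.69 in dany, 0.17 in aly, 0.39 in topi and -0.80 in control. Of 49 matched X-linked genes 13 were higher (26.5%) and 25 lower (51.0%, median -1.09), and of 7 on chromosome 4, 1 was higher and 5 lower (-1.39). On 2L, 2R, 3L and 3R the lower share was 28.4% to 36.2% and the higher share 30.9% to 43.9%.

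Among unnamed targets above background on all 7 dany, aly and topi arrays, FBtr0084834 had levels of 4.10, 4.75 and 4.47 in dany, -4.92 and -4.47 in aly, -4.16 and -3.44 in topi, and a mean of 1.78 in control, a difference of 8.69. FBtr0072356 differed by 8.40, and its topi arrays stood at -7.45 in replicate 1 and -0.96 in replicate 2. FBtr0080047 had the largest fall of these, at -2.90, -7.05 and -5.98 in dany, 2.70 and 2.24 in aly, 3.29 and 3.04 in topi, and 1.29 in control, a difference of -8.13.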
